A study of Mus musculus with 6 samples.

Results

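The genes of 9 transcription factors that direct the macrophage lineage, or are used by it, were examined in a mouse macrophage line stimulated with bacterial endotoxin. They were chosen by name (Spi1, Maf, Runx1, Ets1, Ets2, Mitf, Tfec, Bhlhe40 and Nfatc1), with every probe to which the platform's annotation gives one of these symbols. Of the 9 genes, 8 had a probe, 10 probes in all among 16281 on the array. No probe is listed under Maf, so that gene is not analysed here. All 8 genes with a probe had at least 1 that was measured on all 6 arrays, among 9574 such named genes. The cells were RAW 264.7, an established line from a mouse tumour, which some of the labels write as RAW 264.4. Treated cells received LPS at 100 ng/ml together with LBP at 100 pM and were harvested after 4 h. The control cells received neither agent and were kept for the same 4 h. LPS is the lipid of the outer bacterial membrane that macrophages sense through Toll-like receptor 4, and LBP carries it to the coreceptor CD14. Each array held treated RNA in one dye and untreated RNA in the other. Treated RNA was in Cy5 on 3 arrays and in Cy3 on 3, and the labels give each orientation the set numbers 1 to 3. Nothing in the labels says that sets were separate cultures, so all p-values reflect how far these samples differ from each other, which may be technical variation. A single line stands in for macrophages throughout, and its identity cannot be checked from levels, because the table holds ratios and no intensities.

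PU.1, the product of Spi1, is the ETS-family factor without which macrophages do not form. It opens enhancers together with partners such as Runx1 and C/EBP factors. Ets1 and Ets2 are related ETS factors that the ERK kinases phosphorylate, and Ets2 serves in macrophages as a nuclear end point of growth factor signalling. Mitf and Tfec belong to the MiT group of basic helix-loop-helix factors. Mitf works with PU.1 in osteoclasts, the bone-resorbing relatives of macrophages, and Tfec is expressed mainly in macrophages. Nfatc1 is the calcium-regulated factor that commits precursors to the osteoclast fate, a step RAW 264.7 cells can take when given the cytokine RANKL. Bhlhe40 is a repressor that binds E-boxes, takes part in the circadian loop and restrains interleukin-10. Maf drives interleukin-10 and genes of resident macrophages.

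Promoter windows of the RefSeq table for GRCm38.p6, from 250 bases before to 50 bases after a start site, were at hand for 4 of the genes, Ets2, Mitf, Tfec and Runx1. Windows are shown for Ets2 and Mitf because their RNA rose, and for Tfec because it is the MiT relative of Mitf whose ratio did not pass. Capitals mark matches, on either strand, to the motifs searched apart from CANNTG and GGAAA. The Ets2 window is chr16:95702157-95702456 (plus strand). Those of Mitf are chr6:97806808-97807107, chr6:97929567-97929866 and chr6:97991533-97991832 (plus strand), and that of Tfec is chr6:16898392-16898691 (minus strand).
Ets2: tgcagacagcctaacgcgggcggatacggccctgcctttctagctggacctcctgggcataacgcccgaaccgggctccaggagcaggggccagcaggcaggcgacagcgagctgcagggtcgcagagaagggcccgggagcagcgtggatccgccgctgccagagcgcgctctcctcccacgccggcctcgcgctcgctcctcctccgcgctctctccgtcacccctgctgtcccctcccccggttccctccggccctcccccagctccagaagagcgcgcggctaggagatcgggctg
Mitf, start 1: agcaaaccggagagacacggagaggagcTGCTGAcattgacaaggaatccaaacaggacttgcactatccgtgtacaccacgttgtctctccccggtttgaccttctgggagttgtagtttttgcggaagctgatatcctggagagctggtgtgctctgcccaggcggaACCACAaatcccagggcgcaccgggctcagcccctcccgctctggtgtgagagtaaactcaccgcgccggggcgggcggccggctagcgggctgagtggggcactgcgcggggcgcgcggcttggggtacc
Mitf, start 2: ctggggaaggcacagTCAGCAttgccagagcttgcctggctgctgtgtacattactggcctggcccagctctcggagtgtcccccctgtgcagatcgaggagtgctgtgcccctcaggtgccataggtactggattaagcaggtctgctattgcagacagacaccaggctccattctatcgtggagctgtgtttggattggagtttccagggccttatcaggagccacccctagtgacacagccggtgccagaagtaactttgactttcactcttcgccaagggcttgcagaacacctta
Mitf, start 3: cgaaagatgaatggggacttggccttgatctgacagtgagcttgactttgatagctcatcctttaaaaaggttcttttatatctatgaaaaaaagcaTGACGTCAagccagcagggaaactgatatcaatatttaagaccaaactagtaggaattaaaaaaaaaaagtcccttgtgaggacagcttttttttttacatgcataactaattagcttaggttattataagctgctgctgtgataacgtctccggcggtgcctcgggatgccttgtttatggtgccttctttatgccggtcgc
Tfec: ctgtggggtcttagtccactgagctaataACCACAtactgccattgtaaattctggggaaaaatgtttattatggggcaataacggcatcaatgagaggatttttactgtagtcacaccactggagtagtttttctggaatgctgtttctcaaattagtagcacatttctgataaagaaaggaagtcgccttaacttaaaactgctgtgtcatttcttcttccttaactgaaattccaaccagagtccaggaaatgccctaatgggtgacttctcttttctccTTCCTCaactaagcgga

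The motifs were compared with all 32851 windows of 300 bases in the table. GAGGAA, a PU.1 core, was present in 28.3% of them, and the AP-1 letters TGACTCA or TGAGTCA in 5.2%. The cyclic AMP response element TGACGTCA was present in 1.79%. The NF-κB forms GGGANTTCC and GGGACTTTC were found in 1.68% and 0.353%. The E-box CACGTG occurred in 7.15% and its looser form CANNTG, which includes it, in 72.3%. The Runx letters TGTGGT were in 16.8%, the interferon response letters GAAANNGAA in 8.56%, the NFAT letters GGAAA, which can overlap GAGGAA and GAAANNGAA, in 61.3% and the Maf letters TGCTGA in 19.5%. The Ets2 window, with a GC content of 71.7% against a median of 52.7% over all windows, held none of these letters. The window of Mitf start 3, with a GC content of 40%, held TGACGTCA at bases 98 to 105. The window of start 1 held the Runx letters and TGCTGA, and that of start 2 held TGCTGA. Tfec held the PU.1 letters at bases 284 to 289, within the 50 bases after the start, and the Runx letters at bases 30 to 35. The windows of Runx1 are not shown. That of its start 1 held the PU.1 letters at bases 205 to 210, before the start, so that 2 of the 7 windows of the 4 genes held them. That of its start 2 held CACGTG and, after the start, the Runx letters at 29 and at 37 bases. The NF-κB, AP-1 and interferon letters were in none of the 7 windows of the 4 genes, while CANNTG was in 2 and GGAAA in 5. The files do not say which Mitf transcripts the array probe detects, so its ratio cannot be assigned to one start.

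After LPS and LBP, the RNA of Ets2, Mitf and Spi1 rose and that of Nfatc1 fell slightly. Ets2 rose 1.77-fold, Mitf 1.55-fold and Spi1 1.41-fold, while Nfatc1 was 1.17-fold lower. Runx1, Ets1, Tfec and Bhlhe40 did not pass the test. A value here is the log2 of treated RNA over untreated RNA, given as mean ± SD of n = 3 sets. Each set is the mean of its Cy5 array and its Cy3 array, the latter with its sign reversed. A gene was called at a limma Benjamini-Hochberg adjusted p below 0.05, adjusted over 11364 features (9574 named genes and other single probes). Of the 8 genes, 3 were called higher, against 14.0% of all features, and 1 was called lower, against 15.0%. The 4 called of 8 compare with 29.0% called in either direction over all features. The median change of the 8 was 0.085, against 7.9e-04 over all features. The same 4 genes also kept 1 sign on all 6 arrays, which 25.7% of all features did. The direction rests on reading the deposited ratio as Cy5 over Cy3, since the labels call Cy5 the test channel. Read this way, Il1b, a gene that LPS is known to induce in macrophages, was at 4.17 ± 0.055, and the opposite reading would turn every sign here.

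**Figure D1:**
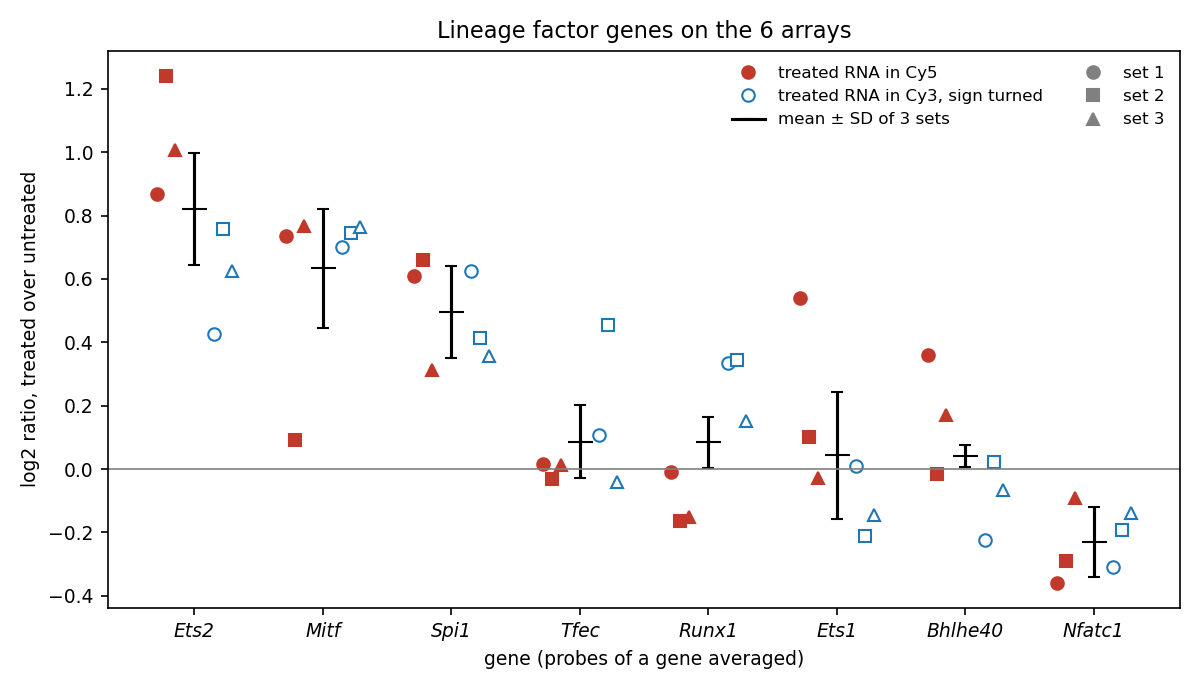
Log2 ratio of treated over untreated RNA (y axis) of the 8 measured genes (x axis) on each array; filled red symbols are arrays with treated RNA in Cy5, open blue symbols sign-turned arrays with treated RNA in Cy3, symbol shapes the sets, and black bars the mean ± SD of the 3 sets. All 6 symbols of Ets2, Mitf and Spi1 lie above 0 and all 6 of Nfatc1 below, while the blue and red symbols of Runx1 lie on opposite sides of 0.

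Ets2 (Entrez Gene 23872), the ERK-responsive ETS factor, had the largest change. With treated RNA in Cy5 it was at 0.87, 1.24 and 1.01 in sets 1 to 3, and with treated RNA in Cy3 at 0.43, 0.76 and 0.63. Every array was above 0, and every Cy5 value exceeded every Cy3 value. The mean was 0.82 ± 0.18 (95% interval 0.66 to 0.98, adjusted p = 9.91e-05). Ets2 was 246th among the 1333 named genes called higher, and 2.41% of all features had a higher ratio.

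Spi1 (Entrez Gene 20375), the gene of PU.1, was at 0.61, 0.66 and 0.31 with treated RNA in Cy5 and at 0.62, 0.41 and 0.36 with it in Cy3. The orientations overlapped, and set 3 was the lowest in both. Its mean was 0.50 ± 0.15 (95% interval 0.35 to 0.64, adjusted p = 7.32e-04), and 425 named genes called higher, itself included, had changes at least that large.

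Ets1 (Entrez Gene 23871), the factor closest to Ets2 in the family, showed no shared direction. It was at 0.54, 0.10 and -0.029 with treated RNA in Cy5 and at 0.010, -0.21 and -0.15 with it in Cy3. Only the Cy5 array of set 1 stood clearly above 0. The mean of 0.044 ± 0.20 did not pass (adjusted p = 0.716), and its 95% interval ran from -0.13 to 0.22. A second Ets1 probe was listed at exactly 0 on 1 array, which was taken as not measured, and averaged 0.064 ± 0.050 over the other 2 sets. In set 2 this probe was at 0.33 with treated RNA in Cy5 and at -0.27 with it in Cy3. In set 3 it was at 0.054 and 0.15, so the SD does not show the spread between its arrays. When 2 measured sets were enough for a probe to be kept, Ets1 was at 0.089 (limma adjusted p = 0.381), with set 1 resting on the first probe alone, at 0.27, and sets 2 and 3 on the mean of both.

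Ets2 exceeded Ets1 by 0.37, 1.05 and 0.90 in the 3 sets, and on 6 of 6 arrays, with a mean difference of 0.78 ± 0.36. Spi1 exceeded Ets1 on 6 of 6 arrays too, by 0.45 ± 0.13. Ets2 and Spi1 were not clearly apart, with differences of 0.031, 0.46 and 0.48. The differences of pairs of genes are descriptions, since an exact sign-flip test over 3 sets cannot go below p = 0.25.

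The other ETS factors divided. Of 17 measured, 3 rose, 4 fell and 10 did not pass (41.2% called, against 29.0% of all features), and their median was -0.014. Elk3, which can repress serum-responsive promoters as a ternary complex factor, fell to -0.95 ± 0.14 (adjusted p = 2.38e-05), the largest change of the list. Etv5 fell to -0.52 ± 0.10 and Elf2 to -0.36 ± 0.093. The value of Ehf, an epithelial ETS gene, was 0.13 ± 0.13 (adjusted p = 0.154, not called). Of the 8 measured genes of the ERK pathway that phosphorylates Ets1 and Ets2, 4 rose and 4 did not pass (50% called). Map3k8, the kinase that couples Toll-like receptors to ERK, rose by 1.79 ± 0.098. Map2k1, which phosphorylates ERK, rose by 0.39 ± 0.090, and Dusp6, a phosphatase of ERK, by 0.36 ± 0.047. Dusp1, a phosphatase of p38, JNK and ERK, was at -0.16 ± 0.12 (adjusted p = 0.0693).

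Mitf (Entrez Gene 17342) rose on every array, though unevenly. With treated RNA in Cy5 it was at 0.74, 0.091 and 0.77, and with it in Cy3 at 0.70, 0.74 and 0.76. The Cy5 array of set 2 was low, and the other 5 arrays lay within 0.70 to 0.77. The mean was 0.63 ± 0.19 (95% interval 0.47 to 0.80, adjusted p = 4.68e-04). On the Cy5 arrays alone Mitf was at 0.53 and was not called (adjusted p = 0.0802). Mitf and Ets2 were not separated, since Ets2 was higher on 4 of 6 arrays, and Mitf was higher than Spi1 on 5 of 6.

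Tfec (Entrez Gene 21426), the macrophage-restricted relative of Mitf, was at 0.017, -0.033 and 0.012 with treated RNA in Cy5 and at 0.11, 0.45 and -0.042 with it in Cy3. A single array, Cy3 of set 2, stood apart. The mean was 0.086 ± 0.11 (95% interval -0.040 to 0.21, adjusted p = 0.294). Mitf exceeded Tfec by 0.66, 0.21 and 0.78 in the 3 sets and on 6 of 6 arrays, on average by 0.55 ± 0.30. The Cy3 array on which Tfec was highest and the Cy5 array on which Mitf was lowest belong to the same set.

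Among 12 measured relatives of Mitf and Bhlhe40 that bind E-boxes, 4 fell and 8 did not pass, with a median of -0.11. The share called was 33.3%, against 29.0% of all features. Lyl1, a factor of blood stem and progenitor cells, fell to -0.78 ± 0.10 (adjusted p = 3.42e-05). Srebf1, which activates lipid synthesis, fell to -0.33 ± 0.040. Tfeb, the MiT factor of lysosome genes, fell to -0.28 ± 0.17, opposite to Mitf. The value of Tcf4 was 0.14 ± 0.12 (adjusted p = 0.0988, not called).

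Runx1 (Entrez Gene 12394), the partner of PU.1 at many myeloid enhancers, had opposite signs in the dye orientations, a difference that did not pass its own test (limma adjusted p = 0.166). It was at -0.0093, -0.16 and -0.15 with treated RNA in Cy5 and at 0.33, 0.35 and 0.15 with it in Cy3. The orientations did not overlap, and all 6 arrays took the sign of their orientation, which was so for 13.0% of all features. The mean was 0.084 ± 0.081 (95% interval -0.028 to 0.20, adjusted p = 0.249), so a change of Runx1 was not resolved. On the Cy3 arrays alone it was at 0.28 and passed (adjusted p = 0.0436). Of its 7 measured relatives and cofactors, 1 rose, 2 fell and 4 did not pass (median -0.084, 42.9% called against 29.0% of all features). Cbfa2t3, a corepressor gene, fell to -0.28 ± 0.055 and Runx3 to -0.19 ± 0.10. Tle4, a corepressor of the Groucho family, rose by 0.18 ± 0.036, and Tle1 was at -0.14 ± 0.079 (adjusted p = 0.0605). Cbfb, which encodes the common partner subunit of the Runx factors, was at -0.084 ± 0.099 and was named after its value was seen.

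With Maf itself not measured, its relatives on the array gave 3 rises and 5 that did not pass among 8. The share called was 37.5%, against 29.0% of all features. Mafk, a small Maf factor without a transactivation domain, rose by 1.28 ± 0.030 (2.43-fold, adjusted p = 9.01e-07), a larger change than that of any of the 8 lineage factor genes measured. Maff, another small Maf, rose by 0.34 ± 0.069 and Nfe2l1 by 0.30 ± 0.11, while Mafg, also a small Maf, was at -0.052 ± 0.067. Nrl, a large Maf factor of the retina, was at 0.022 ± 0.18, Nfe2l2, which drives antioxidant genes, at -0.027 ± 0.15 and its relative Nfe2l3 at -0.027 ± 0.096, and none of these was called. Bach1, a repressor that pairs with small Mafs, was at -0.19 ± 0.32 (adjusted p = 0.251). Of 10 measured macrophage genes linked to Maf, 2 rose and 8 did not pass (20% called). Axl, a receptor for the uptake of dying cells, rose by 1.70 ± 0.49 and Il10 by 1.18 ± 0.31. C1qc, a complement subunit, was at 0.12 ± 0.14 (adjusted p = 0.185).

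Bhlhe40 (Entrez Gene 20893) was at 0.36, -0.014 and 0.17 with treated RNA in Cy5 and at -0.22, 0.022 and -0.066 with it in Cy3. Its values straddled 0 in each orientation, with the widest gap in set 1. The mean was 0.041 ± 0.033 (95% interval -0.058 to 0.14, adjusted p = 0.534). In every set the 2 orientations had opposite signs and partly cancelled. The SD and the interval therefore do not show the spread between its arrays, from -0.22 to 0.36. Of 14 measured genes of the circadian clock, 2 rose, 3 fell and 9 did not pass (median -0.040). The share called was 35.7%, against 29.0% of all features. Cry2 was at -0.31 ± 0.099, Per1 at -0.18 ± 0.047 and Cry1 at 0.16 ± 0.095. Among those not passing, Tef was at -0.18 ± 0.12 (adjusted p = 0.0506). Cry2 kept 1 sign on only 4 of 6 arrays, with a dye effect of -0.23 (limma adjusted p = 0.385). Its SD therefore does not show the spread between its arrays either.

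Nfatc1 (Entrez Gene 18018) was low on every array. The mean of its 2 probes was -0.36, -0.29 and -0.091 with treated RNA in Cy5 and -0.31, -0.19 and -0.14 with it in Cy3, with set 3 nearest to 0 in both. The gene was at -0.23 ± 0.11 (95% interval -0.35 to -0.11, adjusted p = 0.0148). Fitted as single probes, where 28.7% of all probes were called, the first was at -0.26 ± 0.035 and below 0 on all 6 arrays. The second, below 0 on 4 of 6 arrays, averaged -0.20 ± 0.19 and was not called (adjusted p = 0.0707). Without set 1 the gene was at -0.18 and was not called (adjusted p = 0.0754), nor was it on either orientation alone.

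Of 17 NFAT relatives, calcineurin subunits and regulators, 2 rose, 2 fell and 13 did not pass, with a median of -0.028. The share called was 23.5%, against 29.0% of all features. The calmodulin gene Calm2 fell to -0.30 ± 0.027 and the calcineurin regulatory subunit gene Ppp3r1 to -0.19 ± 0.065. Ppp3r1 kept 1 sign on only 4 of 6 arrays, with a dye effect of -0.19 (limma adjusted p = 0.194). Its SD over sets therefore does not show the spread between its arrays. Csnk1a1, a kinase that keeps NFAT in the cytoplasm, rose by 0.19 ± 0.081. Of the 4 other NFAT factors, Nfat5, which responds to osmotic stress, rose by 0.15 ± 0.031 (adjusted p = 0.0324), with the same sign on 6 of 6 arrays. Nfatc3 was at -0.25 ± 0.23 (adjusted p = 0.0562), Nfatc2 at -0.013 ± 0.088 and Nfatc4 at 0.091 ± 0.017, and these 3 were not called. Rcan1, a calcineurin inhibitor that NFAT induces and a gene chosen after its value was seen, was at -0.089 ± 0.18 and was not called. Among 18 measured osteoclast genes known as targets of Mitf or Nfatc1 or as regulators beside them, 7 rose, 1 fell and 10 did not pass (median 0.086). Of these 18, 44.4% were called. Irf8, a macrophage factor that opposes osteoclast formation, rose by 1.04 ± 0.032, Fosl1 by 0.93 ± 0.14 and the fusion gene Ocstamp by 0.79 ± 0.091. Gpnmb, a membrane glycoprotein gene, was at -0.14 ± 0.082 (adjusted p = 0.0715). The 1 gene that fell was Slc37a2, at -0.77 ± 0.046, a gene named after its value was seen. Of genes of bone resorption, named after their values were seen, the phosphatase gene Acp5 rose by 0.39 ± 0.052, the protease gene Mmp9 by 0.23 ± 0.088 and the carbonic anhydrase gene Car2 by 0.22 ± 0.026. Itgb3, Calcr and Clcn7 of the same list, chosen likewise, were at 0.022 ± 0.12, 0.033 ± 0.057 and -0.038 ± 0.082 and were not called. The protease gene Ctsk was at 0.083 ± 0.079 and was not called, with 3 of 6 arrays on either side of 0 and a dye effect of -1.01 (adjusted p = 0.166), so that its SD over sets does not show the spread between its arrays.

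**Figure D2:**
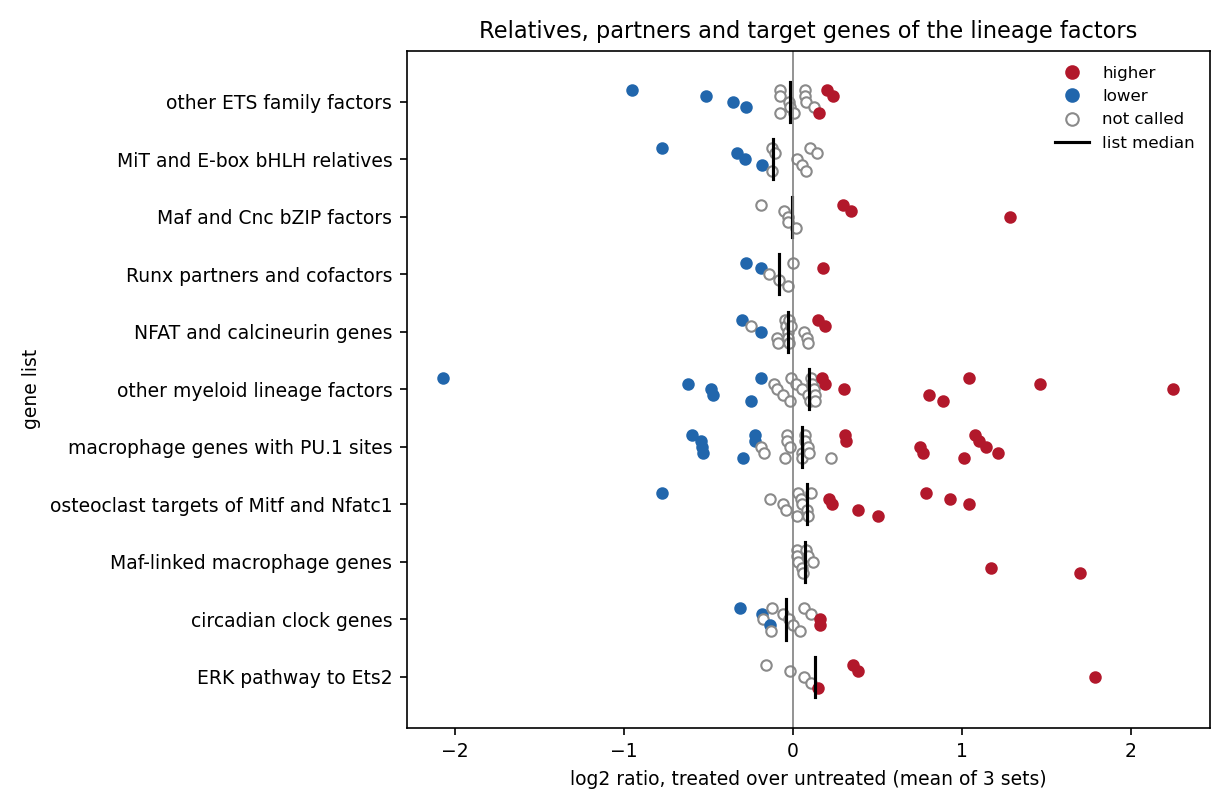
Log2 ratio of treated over untreated RNA (x axis, mean of 3 sets) of the measured genes of 11 lists of relatives, partners and target genes (y axis); red and blue points passed the test as higher or lower, open points did not pass, and black ticks are list medians. List medians lie between -0.11 and 0.13, while single genes reach from -2.07 (Id2) to 2.25 (Egr1).

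Macrophage genes known to have PU.1 sites went both ways. Of 29 measured, 9 rose, 7 fell and 13 did not pass (median 0.052, 55.2% called). Cybb, the catalytic subunit of the phagocyte oxidase, rose by 1.22 ± 0.094, the antibody receptor gene Fcgr1 by 1.14 ± 0.13 and Adgre1, a surface marker of macrophages, by 1.10 ± 0.13. The value of Csf1 was 0.23 ± 0.25 (adjusted p = 0.092, not called). Named after their values were seen, the growth factor receptor gene Csf1r fell to -0.30 ± 0.067 and the antibody receptor gene Fcgr3 to -0.59 ± 0.083. Since bulk RNA was measured, fewer cells with a transcript and less of it per cell cannot be told apart. Of 28 other myeloid lineage factors, 8 rose, 6 fell and 14 did not pass (median 0.097, 50% called). Egr1, which favours macrophage over neutrophil fate, rose by 2.25 ± 0.12 and Zeb2 by 1.46 ± 0.083. Id2, whose product blocks DNA binding by helix-loop-helix proteins, fell to -2.07 ± 0.18. The lipid sensor gene Nr1h3 was at 0.13 ± 0.12 (adjusted p = 0.114). Across the 11 lists, 166 different genes were measured, of which 40 rose and 29 fell (41.6% called, against 29.0% of all features). By list the share called ran from 20% (genes linked to Maf) to 55.2% (genes with PU.1 sites). The lists were chosen with earlier results of these data known, so these shares are descriptions.

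None of the 8 genes passed for a dye effect. This effect, taken as 0.5 times the Cy5 minus the sign-turned Cy3 value, was 0.22 ± 0.025 for Ets2, -0.19 ± 0.054 for Runx1 and 0.16 ± 0.10 for Ets1. It lay between -0.10 and 0.13 for the other 5 genes. That of Nfatc1 was the average of 2 probes with opposite signs, at 0.084 and -0.12. With the sets averaged, 0% of all features passed for the dye in limma, although 2630 of 11364 had an unadjusted p below 0.05, and the smallest adjusted p among the 8 genes was 0.166. With the 6 arrays fitted without set numbers 554 features passed, none of the 8 genes among them (Runx1 adjusted p = 0.0569). Ets2 was called in either orientation alone, at 1.04 (adjusted p = 0.00436) and 0.60 (adjusted p = 0.00881), and so was Spi1, at 0.53 (adjusted p = 0.0255) and 0.46 (adjusted p = 0.0146).

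**Figure D3:**
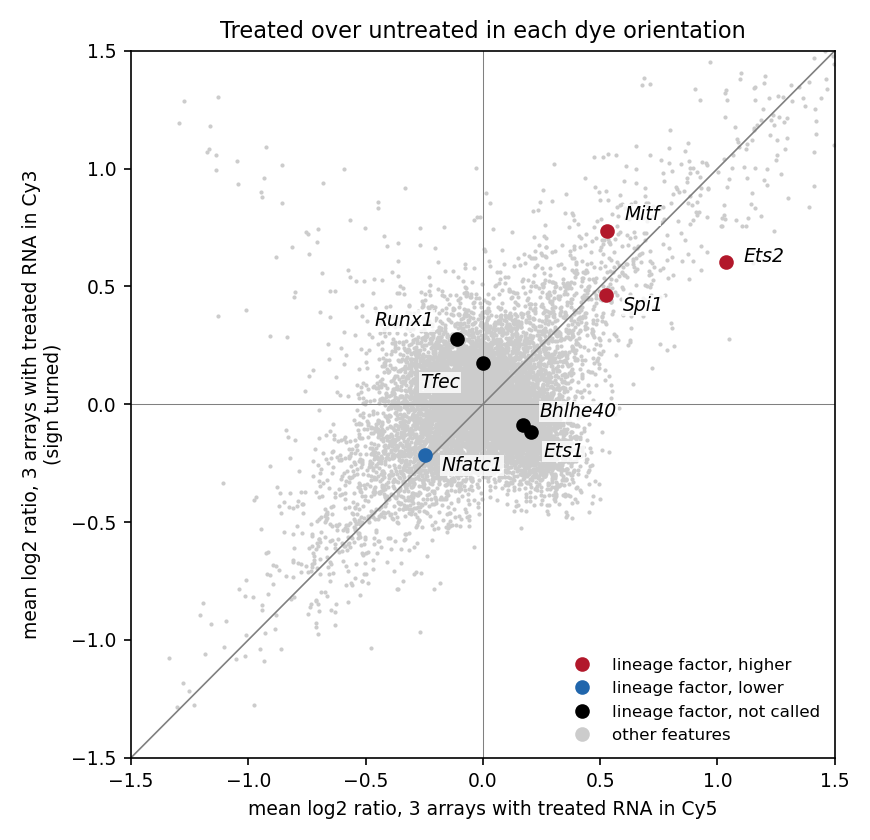
Mean log2 ratio of treated over untreated RNA on the 3 arrays with treated RNA in Cy5 (x axis) against that on the 3 sign-turned arrays with treated RNA in Cy3 (y axis) for all features (grey) and the 8 lineage factor genes (coloured by call); the diagonal marks equal values, and 144 features beyond 1.5 are not drawn. Spi1 and Nfatc1 (the mean of 2 probes) lie close to the diagonal, Ets2 lies to its right at 1.04 and 0.60, and Runx1 lies at -0.11 and 0.28.

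Of 11 macrophage markers measured, 5 rose, 1 fell and 5 did not pass, among them Mpeg1 at 1.08 ± 0.13 and Laptm5 at -0.17 ± 0.25. By list, 0% to 16.7% of markers of other cell types were called, against 29.0% of all features in either direction and 14.0% higher. These lists are short, and with ratios alone an unchanged transcript cannot be told from one near background. In the T cell list 1 of 10 rose (Cd4, 0.23 ± 0.12), in the B cell list 1 of 9 (Cd22, 0.15 ± 0.079), in the mast cell list 1 of 9 (the histamine-forming enzyme gene Hdc, 2.32 ± 0.64), in the neutrophil list 1 of 10 (Elane, 0.29 ± 0.13) and in the erythroid list 1 of 6 (Alas2, 0.30 ± 0.11). Of 9 fibroblast markers 0 passed in limma, and 0 had an unadjusted p below 0.05. Among markers that were not called, the largest change was 0.084 ± 0.21 (Cd3g) in the T cell list, 0.098 ± 0.11 (Cd79b) in the B cell list, 0.089 ± 0.080 (Fcer1a) in the mast cell list, 0.13 ± 0.044 (Ly6g) in the neutrophil list, 0.12 ± 0.17 (Col1a2) in the fibroblast list and 0.11 ± 0.14 (Slc4a1) in the erythroid list. The part of these markers in the changes of the lineage factors was not tested.

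**Figure D4:**
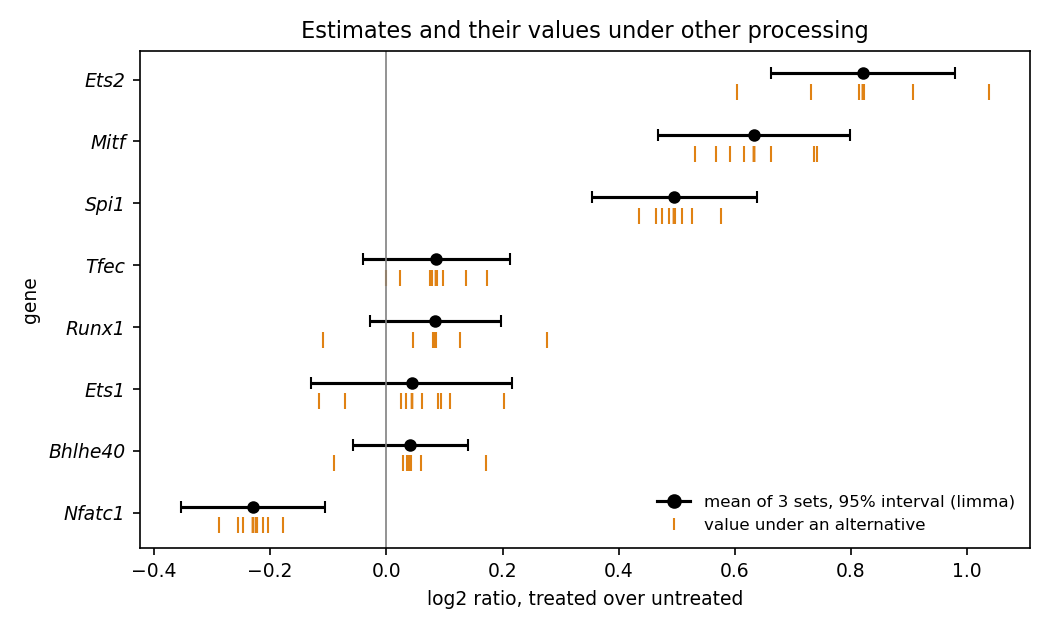
Log2 ratio of treated over untreated RNA (x axis) of the 8 genes (y axis); black points and bars are the mean of 3 sets with its 95% interval from limma, and orange ticks the values under each other way of processing. The ticks of Ets2, Mitf and Spi1 stay above 0.43 and those of Nfatc1 below -0.17, while those of Runx1, Ets1, Tfec and Bhlhe40 lie on both sides of 0.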

How the data were processed

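RNA of LPS- and LBP-treated RAW 264.7 cells was compared with that of untreated cells on 6 two-colour arrays. The authors deposited a log2 ratio for every probe on each array. The median of each array is 0 with exact zeros included, which does not show where the measured values centre. Scanner, background correction and normalization are not given in the sources used here. The base of the logarithm follows from the upper limit of the values, 6.643856, equal to log2 of 100. Opposite orientations correlated from -0.76 to -0.37 across probes, and signs were reversed on arrays whose Cy3 channel held treated RNA. Each array held 1254 to 2086 exact zeros, treated as missing. Probes with a value on every array numbered 13415 and were kept, and probes of 1 gene were averaged. Symbols came from the platform annotation (13738 probes with 1 symbol, 52 with several, 2491 with none listed), and of the former 13694 matched the GRCm38.p6 gene table by Entrez ID.

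Each set was counted as 1 dye-swapped replicate, an assumption, and limma 3.58.1 in R 4.3.3 tested whether the mean of the 3 sets differed from 0 (two-sided moderated test), with p-values adjusted by Benjamini-Hochberg over 11364 features. Dye effects were tested in the same way on unturned means. The test was tried first on simulated data, in 10 runs with 200 of 11364 features changed by 1.5-fold or more. At 1.5-fold 99.3% were recovered, and 4.46% of calls were false. Smaller changes, such as those of Spi1 and Nfatc1, and a larger share of changed features were not simulated. The number of arrays limits the precision.

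The genes and the lists were chosen with earlier results of these data known. The text names all 9 genes, from each list up to 3 called genes and 1 uncalled gene with the largest absolute change, with the lists' members related to Mitf, Maf, Runx1 and Nfatc1 open to naming by value. Genes named outside this rule are marked in the text. Alternatives covered normalization, set blocks, single orientations, sets left out, missing values, probe averaging, variance model and threshold. A planned comparison of protein sequences was not run, as no protein table was used here.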

Additional observations from a re-analysis of the deposited data

Results flagged for a closer look

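Runx1 took opposite signs in the dye orientations, below 0 on all 3 arrays with treated RNA in Cy5 and above 0 on all 3 with it in Cy3. Its dye effect was -0.193 ± 0.054 (SD, n = 3 sets). The difference itself was tested in limma and did not pass (limma adjusted p = 0.166 over 11364 features). A pattern of this kind, opposite signs on all 6 arrays, was present in 13.0% of all features and in 1 of the 8 lineage factor genes. Its cause was not tested.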

How the results depend on the processing

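Ets2, Mitf, Spi1 and Nfatc1 kept their direction under the 19 alternatives tried. Ets2 ranged from 0.60 to 1.04, Mitf from 0.53 to 0.74, Spi1 from 0.44 to 0.58 and Nfatc1 from -0.29 to -0.18. The labels link the arrays of a set by number only. Deviations of same-numbered arrays from their orientation means, on sign-turned values, correlated at -0.48, -0.51 and -0.020. For different numbers the range was -0.12 to 0.53. In sets 1 and 2 the same-numbered arrays thus tended to deviate in opposite directions, which partly cancels in the set mean. The SDs and p-values over 3 sets can therefore understate the spread between arrays. With the set number as a replicate block the count of called features was 2438 (fixed) or 3412 (random), and 3147 with no replicate block. The same 4 lineage factor genes were called in each. Leaving out a set, between 0 and 1 of the 8 was called lower, and Ets1 ran from -0.072 to 0.11. With treated RNA in Cy5 alone, 1825 features were called (931 higher, 894 lower) and 2 of the 8 genes (0 lower), with Runx1 at -0.11 and Tfec at -0.0012. With it in Cy3 alone, 1079 features and 0 of the 8 were called lower, with Bhlhe40 at -0.089 and Ets1 at -0.12. At an adjusted p below 0.01, 2127 features were called, 1063 of them lower, and 0 of the 8 genes lower. Against a 1.5-fold change 296 features passed limma's treat test (261 higher, 35 lower), with 16 related genes and 0 of the 8 genes (0 higher, 0 lower; Ets2 adjusted p = 0.16). Dye calls numbered 554 over 6 arrays and 1 over single probes, both chosen after seeing the data. Other causes were not tested, and signal over background is unknown.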

Other observations

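The ternary complex factors, ETS proteins that join serum response factor at immediate early genes, differed among themselves. Elk3 fell to -0.95 ± 0.14, Elk4 rose by 0.15 ± 0.045 and Elk1 was at 0.0070 ± 0.17 (adjusted p = 0.953). Elk1 and Elk4 were picked with their values in view. The Krüppel-like factor genes Klf2 and Klf4 fell, Klf2 to -0.62 ± 0.092 and Klf4 to -0.47 ± 0.091, as did the nuclear receptor gene Nr4a1 to -0.48 ± 0.092, whereas Stat3 rose by 0.89 ± 0.075 and Jdp2, a bZIP factor of osteoclasts, by 0.80 ± 0.32. These too were named after their values were seen.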
